A study of Homo sapiens with 8 samples.

Results

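The glucocorticoid receptor, encoded by NR3C1, was followed together with 9 genes whose proteins fold, hold or release it: the immunophilins FKBP5 and FKBP4, the HSP90 chaperones HSP90AA1 and HSP90AB1, the HSP90 co-chaperones PTGES3 and STIP1, the HSP70 chaperone HSPA8, and the HSP70 exchange factors HSPA4 and BAG1. The 10 genes were taken by symbol, as genes with known roles around the receptor, and each symbol named a single gene among the 19158 genes in the table. All 10 passed the filter on low values (0.5 FPKM or more in 4 or more libraries), as did 12161 genes in all. Gene levels are in FPKM, fragments scaled to transcript length and to library size, a unit inferred from the values because no source names it.

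RNA was measured in A549, an established human lung adenocarcinoma line, labelled wild type and grown in DMEM with glutamax and fetal bovine serum. The untreated group had 4 wells and received nothing. The dexamethasone group had 4 wells and received 1 µM dexamethasone, a synthetic ligand of the glucocorticoid receptor, for 48 h. Both groups shared the line, the serum-containing medium and the batch label, and replicates were numbered 1, 3, 4 and 5 in each. Replicates were wells of 1 line, so p-values measure the spread between these wells. The comparison asks how the RNA of the receptor's own machinery stood after prolonged exposure to its ligand.

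Without hormone, the glucocorticoid receptor is held in the cytoplasm by a chaperone cycle. HSP70 with its DNAJ partners binds the receptor first, the adaptor STIP1 (also called HOP) hands it to HSP90, and PTGES3 (p23) stabilises the closed HSP90 complex in which the receptor can bind hormone. An immunophilin occupies the remaining docking site on HSP90: the FKBP5 product lowers the receptor's affinity for hormone, while the FKBP4 product favours hormone binding and links the complex to dynein for transport to the nucleus. FKBP5 is itself a well-known receptor target, so its induction forms a short negative feedback loop on the receptor.

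Chaperone genes are also known for heat-shock elements, the inverted repeats bound by heat-shock factors, and receptor targets for the palindrome bound by receptor dimers. Both motifs were looked for, on both strands, in the 250 bases before each start site given by RefSeq (GRCh38.p14), where 9 of the 10 genes matched by symbol with 20 start sites. FKBP4 had no entry. The receptor palindrome, searched as GNACA and TGTNC with any 3 bases between them, was in 0.327% of all 35116 promoter windows and in 0 of the 20. With so low a share over all windows, 0 of 20 says little, and sites outside the windows were not searched. The heat-shock element was searched as 3 alternating units of GAA and TTC, starting with either and with any 2 bases between units, and it was in 0.441% of all windows and in 3 of the 20. Those 3 windows belonged to HSP90AB1, HSPA8 and HSP90AA1, and held 5 matches. All 5 matches are shown. The 3 genes also had the highest mean levels of the 10, and a link between the element and the level was not tested. Each is printed 5′ to 3′ on the strand of its gene, with the matching letters in capitals.
HSP90AB1, first: ggagcaggTTCTGGAAGATTCatgggctc
HSP90AB1, second: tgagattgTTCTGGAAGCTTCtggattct
HSPA8, first: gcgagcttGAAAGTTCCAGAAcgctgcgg
HSPA8, second: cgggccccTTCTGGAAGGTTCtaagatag
HSP90AA1: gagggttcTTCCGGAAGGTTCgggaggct

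The HSP90AB1 stretches lie at chr6:44247770-44247798 and chr6:44247823-44247851 on the plus strand, in an intron of the gene's canonical GENCODE transcript. Their capital letters start 165 and 112 bases before the start site. The HSPA8 stretches lie at chr11:123062346-123062374 and chr11:123062171-123062199 on the minus strand, with capital letters starting 230 and 55 bases before the start site. They are outside the canonical HSPA8 transcript, but inside an untranslated exon of another annotated HSPA8 transcript. The HSP90AA1 stretch lies at chr14:102087112-102087140 on the minus strand, outside the canonical transcript and in no exon of the gene. Its capital letters start 88 bases before the start site. A match of letters is a description of the window and no evidence of binding.

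Of the 10 genes, 3 passed the test between the groups (limma, Benjamini-Hochberg adjusted p under 0.05 over the 12161 genes), where 26.8% of all genes tested did. FKBP5 rose, and 12.6% of all genes tested rose. FKBP4 and STIP1 fell, and 14.2% of all genes tested fell. The values of the groups did not overlap for these 3 genes and for HSP90AB1, against 31.5% of all genes tested. The 3 called and the 4 without overlap among 10 genes are thus near the share of all genes, and the median log2 fold change was -0.07 over the 10 genes and 0.01 over all genes tested. In bulk RNA, fewer cells that express a gene and less of its RNA per cell cannot be told apart.

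**Figure D1:**
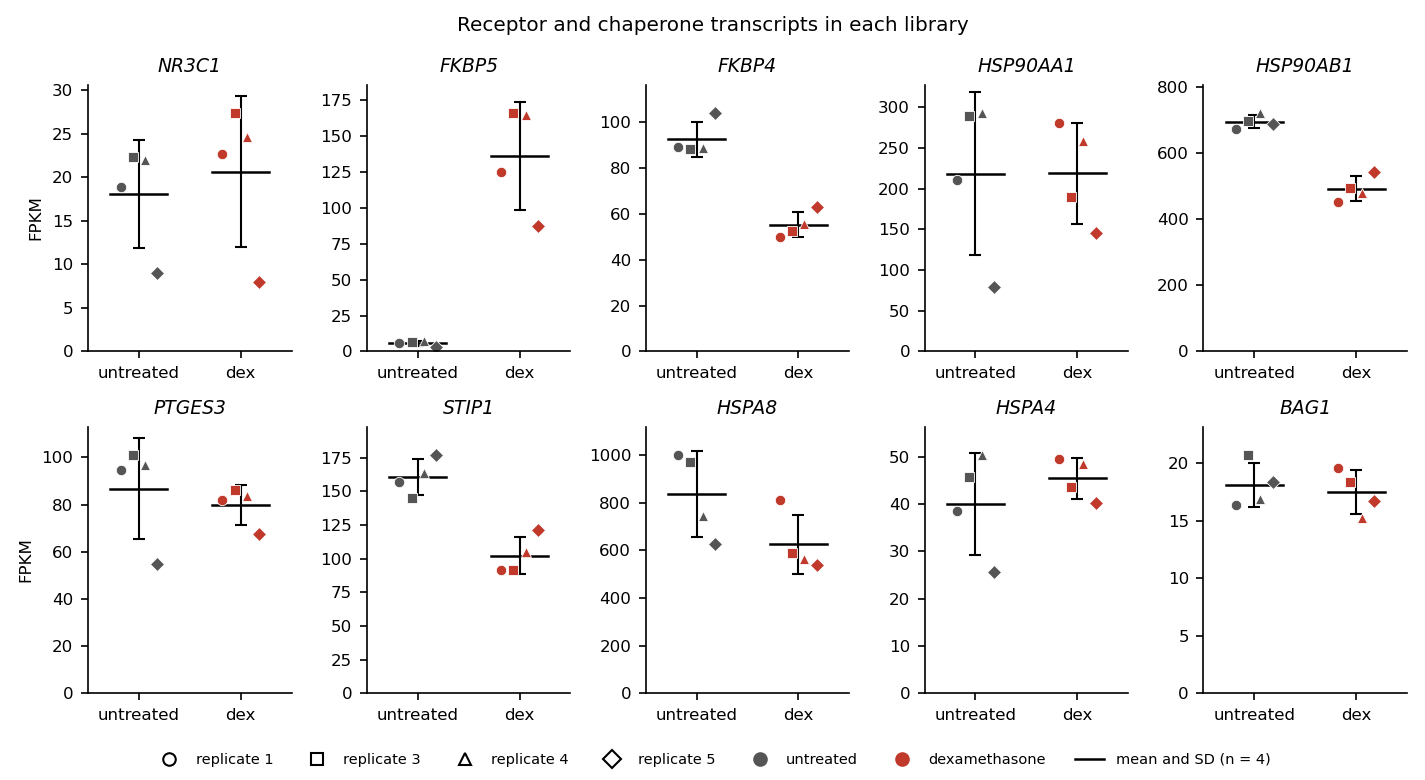
Deposited level of each of the 10 genes, in FPKM on a linear axis for each gene, in 4 untreated and 4 dexamethasone libraries (points), with the group mean and SD (bars). FKBP5 moved from the lowest of the 10 mean levels, 5.8 FPKM, to 136 FPKM, while FKBP4, STIP1 and HSP90AB1 were lower in all 4 dexamethasone libraries than in any untreated library.

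The libraries numbered 5 stood apart from the others in both groups, and this touched most of the 10 genes. In each group, library 5 was the lowest of the 4 for 6 genes (PTGES3, NR3C1, HSP90AA1, HSPA4, FKBP5 and HSPA8), whose canonical transcripts have a GC content of 40.1% to 45.3%. In each group it was the highest for FKBP4 and STIP1, whose GC content is 51.0% and 52.4%. Spearman correlations across all genes between libraries of the same group were 0.986 to 0.989 among the other 3 and 0.972 to 0.985 with library 5. Fold changes are therefore given for all 8 libraries, and also without both libraries numbered 5 where the difference matters; the part of this pattern in each result was not tested beyond those values. The depth, estimated from the steps between low values, was 25050000 to 28400000 fragments per library. Epithelial keratins were high in all libraries (the 5 epithelial markers KRT7, KRT8, KRT18, CDH1 and EPCAM summed to 3340 to 4890 FPKM in untreated and 4500 to 6860 FPKM in dexamethasone libraries), although EPCAM stayed at or under 0.765 FPKM. The leukocyte markers PTPRC and CD3E were at 0 in all libraries. The sums of leukocyte markers, all of them from CD14, were 2.01 to 3.14 FPKM untreated and 1.19 to 1.56 FPKM with dexamethasone. Fibroblast markers summed to 1.81 to 2.29 FPKM and 0.598 to 0.741 FPKM, with COL1A2 at 0 in all libraries. Among them COL1A1 was lower with dexamethasone (1.79 to 2.25 FPKM untreated, 0.274 to 0.437 FPKM with dexamethasone). DCN went the other way, from 0 in every untreated library to 0.178 to 0.355 FPKM. Endothelial markers summed to 0.0692 to 0.176 FPKM and 0 to 0.0327 FPKM.

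The receptor gene itself showed no difference that passed the test. NR3C1 (ENSG00000113580) lies on chromosome 5 from 143277931 to 143435512, minus strand, in GRCh38. Untreated replicates 1, 3, 4 and 5 had 18.9, 22.4, 22 and 9.06 FPKM of it. Dexamethasone replicates of the same numbers, always listed in this order, had 22.7, 27.4, 24.6 and 7.94 FPKM. The groups overlapped through the libraries numbered 5, which were far below the other 3 in each group; among those 3, all dexamethasone values were above all untreated values. The means were 18.1 ± 6.23 FPKM untreated and 20.7 ± 8.69 FPKM with dexamethasone (SD, n = 4). On the log2 scale the difference was 0.12 (SE 0.334, 95% confidence interval -0.62 to 0.87, limma adjusted p = 0.802). The interval holds both a fall and a rise of moderate size, so these data do not show that the receptor RNA stayed the same.

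Without both libraries numbered 5, the NR3C1 means were 21.1 ± 1.91 and 24.9 ± 2.36 FPKM (SD, n = 3). The difference was then 0.28 on the log2 scale (interval 0.05 to 0.5, limma adjusted p = 0.0496), just past the threshold. With each library's trend against GC content removed, it was -0.14 (limma adjusted p = 0.671). The direction of NR3C1 was thus not fixed by these libraries.

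Some other steroid receptors share the same chaperone cycle, and A549 RNA held little of the 4 described here, none of which passed the filter. NR3C2, the mineralocorticoid receptor gene, whose product binds many glucocorticoids, reached 0.0335 FPKM at most, and ESR1 and ESR2, the estrogen receptor genes, 0.00614 and 0.0831 FPKM at most. PGR, the progesterone receptor gene, was listed at 0 in all 8 libraries.

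The immunophilins showed the widest split. FKBP5 (ENSG00000096060; chromosome 6, 35573585 to 35728583, minus strand) had 5.86, 6.76, 7.3 and 3.28 FPKM in the untreated libraries. In the dexamethasone libraries it had 125, 166, 165 and 87.3 FPKM. The lowest dexamethasone library, number 5, was still far above every untreated library. The means were 5.8 ± 1.78 and 136 ± 37.6 FPKM (SD, n = 4), a log2 fold change of 4.33 (SE 0.209, 95% confidence interval 3.86 to 4.8, limma adjusted p = 9.88e-07). It was 4.36 without both libraries numbered 5 and 4.16 with the GC trend removed.

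FKBP4 (ENSG00000004478; chromosome 12, 2794953 to 2805423, plus strand) moved the other way. Untreated libraries had 89.4, 88.4, 88.7 and 104 FPKM, and dexamethasone libraries had 50.1, 52.7, 55.7 and 62.9 FPKM. The groups did not overlap, and library 5 was the highest in each. The means were 92.7 ± 7.79 and 55.4 ± 5.54 FPKM (SD, n = 4). FKBP4 fell, with a log2 fold change of -0.74 (SE 0.184, 95% confidence interval -1.15 to -0.33, limma adjusted p = 0.0156). It was -0.69 without both libraries numbered 5 (limma adjusted p = 0.00028). Leaving out dexamethasone replicate 1 or 3 took the limma adjusted p for FKBP4 to 0.053 or 0.0514, with log2 fold changes of -0.67 and -0.71. FKBP4 has 5 pseudogenes that carry its name in GENCODE, and how reads shared with such copies were assigned is not given in the sources used here.

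The balance between the immunophilins was therefore compared within each library, where scaling between libraries plays no part. The ratio of FKBP5 to FKBP4 was 0.0656, 0.0765, 0.0822 and 0.0314 in untreated libraries numbered 1, 3, 4 and 5. It was 2.49, 3.16, 2.96 and 1.39 with dexamethasone. In each group library 5 was the lowest for FKBP5 and the highest for FKBP4, and its ratio was the lowest. The pattern of the libraries numbered 5 thus does not cancel in this ratio. FKBP4 RNA was the more abundant in every untreated library, and FKBP5 RNA in every dexamethasone library. The mean ratio was 0.064 ± 0.0227 untreated and 2.5 ± 0.791 with dexamethasone (SD, n = 4), a difference of 5.31 on the log2 scale. The exact two-sided permutation test gave p = 0.0286, the smallest that 4 against 4 libraries allow, and 0.143 after adjustment over the 5 ratios computed.

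The other FKBP genes encode peptidyl-prolyl isomerases that mostly do not belong to the receptor complex. Of 10 of them tested, 0 rose and FKBP11 fell, a share of 10% called against 26.8% of all genes tested. For 3 of the 10 the unadjusted p was under 0.05 (limma), against 4768 of the 12161 genes tested. The median log2 fold change of the 10 was 0.03. FKBP11, a membrane-bound immunophilin of the secretory pathway, went from 9.6 ± 0.896 to 4.88 ± 0.72 FPKM (SD, n = 4; log2 fold change -0.86, SE 0.14, limma adjusted p = 0.0016). FKBP3, a nuclear immunophilin, had 11.8 ± 3.43 and 17.6 ± 4.44 FPKM (SD, n = 4; limma adjusted p = 0.0552). FKBP1B, which binds calcium-release channels, had 2.52 ± 0.24 and 3.49 ± 0.673 FPKM (SD, n = 4; limma adjusted p = 0.114). FKBP3 passed without untreated replicate 3 or dexamethasone replicate 5 (limma adjusted p 0.0486 and 0.0174), and FKBP1B without untreated replicate 5 (0.0368).

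**Figure D2:**
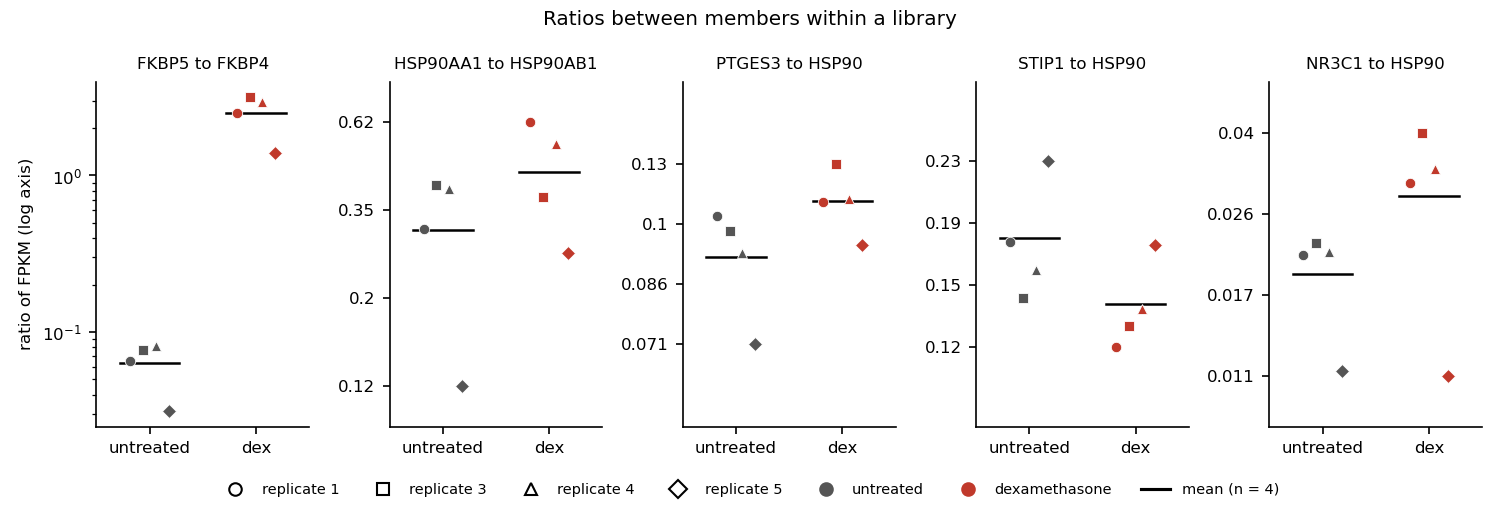
Ratios of FPKM within each library on log axes, for 4 untreated and 4 dexamethasone libraries, with group means as bars. The FKBP5 to FKBP4 ratio lay at 0.0314 to 0.0822 in untreated and 1.39 to 3.16 in dexamethasone libraries, whereas the other 4 ratios overlapped between the groups.

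HSP90 is encoded by the stress-inducible HSP90AA1 and the more constitutive HSP90AB1, and neither difference passed the test, although the HSP90AB1 groups did not overlap. HSP90AA1 (ENSG00000080824; chromosome 14, 102080738 to 102139699, minus strand) was at 211, 290, 293 and 79.3 FPKM in the untreated libraries. After dexamethasone its values were 281, 190, 259 and 146 FPKM. The groups overlapped widely, and library 5 was the lowest in each. The means were 218 ± 100 and 219 ± 62 FPKM (SD, n = 4). The log2 fold change of 0.12 did not pass the test (SE 0.331, 95% confidence interval -0.62 to 0.86, limma adjusted p = 0.808), and it was -0.07 without both libraries numbered 5. WDR20 overlaps HSP90AA1 on the opposite strand, and whether counting used strand is not given in the sources used here.

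HSP90AB1 (ENSG00000096384; chromosome 6, 44246166 to 44253888, plus strand) was at 675, 699, 722 and 689 FPKM in the untreated libraries. Its dexamethasone values were 453, 494, 479 and 544 FPKM. All 4 dexamethasone libraries were below all 4 untreated libraries, and the untreated libraries were close together. The means were 696 ± 20.1 and 493 ± 38.4 FPKM (SD, n = 4). A log2 fold change of -0.51 (SE 0.17, 95% confidence interval -0.88 to -0.13) missed the threshold at a limma adjusted p of 0.0523. The call depended on the scaling and the filter: limma adjusted p was 0.0412 with count-based weights in the trimmed mean, 0.0301 with upper-quartile scaling, 0.00449 with no scaling and 0.0463 with no filter, at log2 fold changes of -0.49 to -0.51. It passed without both libraries numbered 5 (-0.50, limma adjusted p = 0.00121) and with the GC trend removed (-0.52, limma adjusted p = 0.0194). Leaving out untreated replicate 5 or dexamethasone replicate 5 alone also brought it past the threshold, at -0.43 and -0.60 (limma adjusted p = 0.0293 in each).

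The ratio of HSP90AA1 to HSP90AB1 was 0.312 ± 0.139 untreated and 0.453 ± 0.157 with dexamethasone (SD, n = 4). That difference, 0.63 on the log2 scale, gave p = 0.314 in the exact two-sided permutation test (adjusted over the 5 ratios, 0.393). A different response of these paralogs, whose promoter windows both hold the heat-shock element printed above, was thus not shown. The ratio of NR3C1 to the sum of both HSP90 genes was 0.0194 ± 0.00508 untreated and 0.029 ± 0.0123 with dexamethasone (SD, n = 4), with an exact permutation p of 0.4 (0.4 adjusted). In every library the HSP90 RNAs together were far above the receptor RNA per length.

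**Figure D3:**
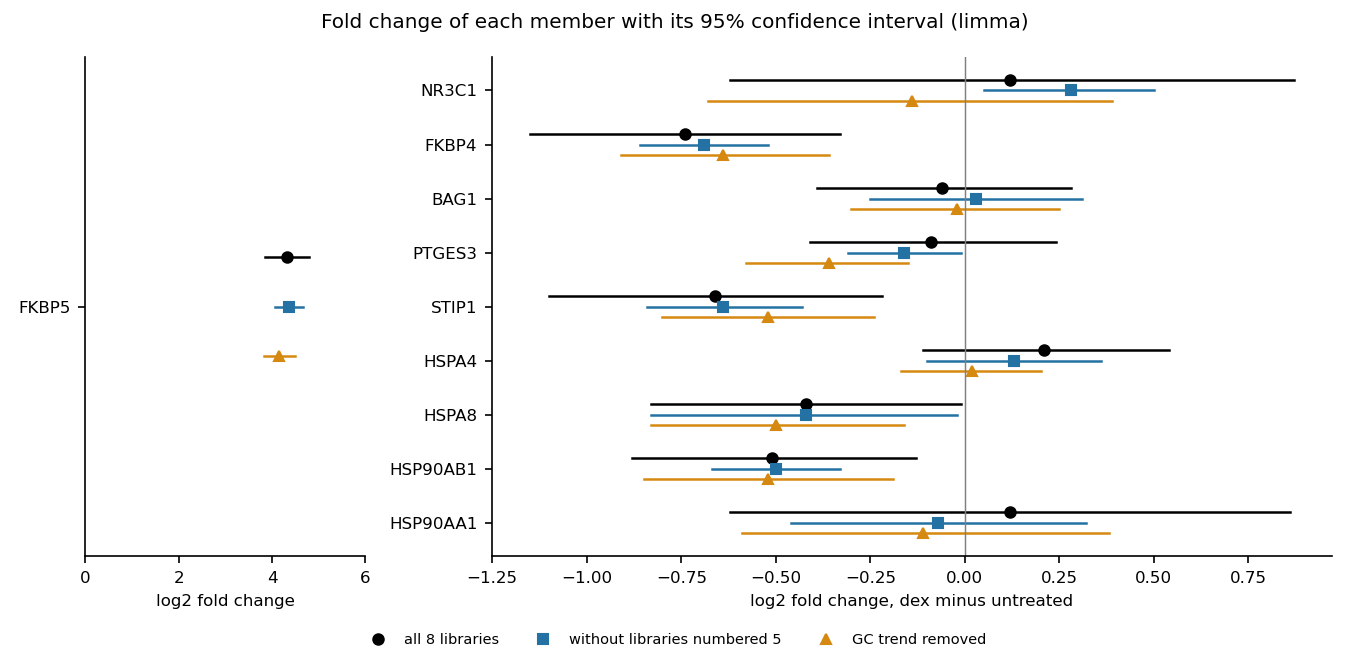
Log2 fold change of each of the 10 genes, dexamethasone minus untreated, on the log2(FPKM + 1) scale, with 95% confidence intervals from limma over all 8 libraries, without both libraries numbered 5, and with the GC trend removed; FKBP5 has its own axis. FKBP4, STIP1, HSP90AB1 and HSPA8 had whole intervals below 0 in the 3 fits, PTGES3 lay at -0.09, -0.16 and -0.36, and NR3C1 and HSP90AA1 had the widest intervals over all 8 libraries and changed sign between fits.

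Among the co-chaperones that act on HSP90, STIP1 fell and PTGES3 showed no difference that passed the test. STIP1 (ENSG00000168439; chromosome 11, 64176553 to 64204543, plus strand), the adaptor between HSP70 and HSP90, had 157, 145, 164 and 177 FPKM in the untreated libraries. Dexamethasone libraries held 91.5, 91.8, 105 and 121 FPKM. The groups did not overlap, and library 5 was the highest in each. The means were 161 ± 13.2 and 102 ± 13.9 FPKM (SD, n = 4), a log2 fold change of -0.66 (SE 0.195, 95% confidence interval -1.1 to -0.22, limma adjusted p = 0.0332). It was -0.64 without both libraries numbered 5 (limma adjusted p = 0.00103). The STIP1 call was lost when untreated replicate 1 or 4 or dexamethasone replicate 1, 3 or 4 was left out (limma adjusted p 0.0544, 0.0573, 0.101, 0.0984 and 0.0804), with log2 fold changes between -0.59 and -0.69.

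PTGES3 (ENSG00000110958; chromosome 12, 56663341 to 56688408, minus strand), the p23 co-chaperone, had 94.7, 101, 96.6 and 54.8 FPKM in the untreated libraries. Under dexamethasone these were 81.9, 86.3, 83.6 and 67.5 FPKM. Among the libraries numbered 1, 3 and 4 the dexamethasone values were the lower, and the groups overlapped only through the low untreated library 5. The means were 86.8 ± 21.5 and 79.8 ± 8.45 FPKM (SD, n = 4). The log2 fold change was -0.09 (SE 0.145, 95% confidence interval -0.41 to 0.24, limma adjusted p = 0.671). With the GC trend removed it was -0.36 (limma adjusted p = 0.0142), and without both libraries numbered 5 it was -0.16 (limma adjusted p = 0.0843).

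Against the sum of both HSP90 genes, neither co-chaperone's ratio differed past the threshold of the permutation test. For STIP1 the ratio averaged 0.179 ± 0.0366 untreated and 0.144 ± 0.0219 with dexamethasone (SD, n = 4), with an exact permutation p of 0.114 (0.19 adjusted). For PTGES3 it averaged 0.0939 ± 0.0157 and 0.112 ± 0.0117 (SD, n = 4), with an exact permutation p of 0.0857 (0.19 adjusted).

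A wider list held 25 HSP90 paralogs and co-chaperones, all of them tested. Of these, 0 rose and FKBPL fell, a share of 4% called against 26.8% of all genes tested. An unadjusted p under 0.05 (limma) was found for 7 of the 25, against 4768 of the 12161 genes tested. Groups did not overlap for 7 of the 25, against 31.5% of all genes tested. The median log2 fold change of the list was -0.06. FKBPL, an FKBP-like HSP90 partner, went from 5.44 ± 1.16 to 2.83 ± 0.234 FPKM (SD, n = 4; log2 fold change -0.74, SE 0.196, limma adjusted p = 0.0204), a call that was lost without dexamethasone replicate 1, 3 or 4 (limma adjusted p 0.0614, 0.0575 and 0.0587). TTC4, a TPR-domain HSP90 partner, had 12.3 ± 0.683 and 9.11 ± 0.932 FPKM (SD, n = 4; limma adjusted p = 0.0616). NUDC, a dynein-associated HSP90 co-chaperone, had 67.7 ± 5.7 and 48.1 ± 3.46 FPKM (SD, n = 4; limma adjusted p = 0.0662). NUDC passed without untreated replicate 5 or dexamethasone replicate 5 (limma adjusted p 0.0476 and 0.0411), and TTC4 without dexamethasone replicate 5 (0.0327). Without both libraries numbered 5, 11 of the 25 were called, where 45.2% of all genes tested in that fit were.

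HSPA8, the constitutive cytosolic HSP70, had the highest mean level of the 10 genes in both groups, and the difference between the groups did not pass the test. HSPA8 (ENSG00000109971; chromosome 11, 123057489 to 123063230, minus strand) reached 1000, 972, 745 and 626 FPKM in the untreated libraries. It reached 810, 590, 564 and 538 FPKM with dexamethasone. The dexamethasone values were mostly lower, but dexamethasone replicate 1 was above untreated replicates 4 and 5. The means were 836 ± 181 and 625 ± 125 FPKM (SD, n = 4). A log2 fold change of -0.42 (SE 0.183, 95% confidence interval -0.83 to -0.01) did not pass the test (limma adjusted p = 0.123). With the GC trend removed, it was -0.50 (limma adjusted p = 0.027). GENCODE names 17 HSPA8 pseudogenes, and small nucleolar RNA genes lie inside HSPA8 on the same strand, so its level is uncertain to the extent that such reads were counted.

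HSPA4 and BAG1, which release nucleotide from HSP70, showed no difference that passed the test. HSPA4 (ENSG00000170606; chromosome 5, 133051962 to 133106449, plus strand), of the HSP110 family, had 38.5, 45.7, 50.3 and 25.6 FPKM in the untreated libraries. The dexamethasone libraries had 49.5, 43.6, 48.4 and 40.2 FPKM. The groups overlapped, with untreated library 5 the lowest of the 8. The means were 40 ± 10.8 and 45.4 ± 4.33 FPKM (SD, n = 4; log2 fold change 0.21, SE 0.145, 95% confidence interval -0.11 to 0.54, limma adjusted p = 0.299).

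BAG1 (ENSG00000107262; chromosome 9, 33247820 to 33264720, minus strand), whose long form is known to restrain receptor activity, had 16.4, 20.7, 16.9 and 18.4 FPKM in the untreated libraries. Values after dexamethasone were 19.6, 18.4, 15.2 and 16.7 FPKM. The groups overlapped through most of their range, and library 5 was neither the lowest nor the highest in either. The means were 18.1 ± 1.91 and 17.5 ± 1.93 FPKM (SD, n = 4). The log2 fold change was -0.06 (SE 0.148, 95% confidence interval -0.39 to 0.28, limma adjusted p = 0.803), and gene totals do not separate the BAG1 forms. SPINK4 overlaps BAG1 on the opposite strand.

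Of 30 tested genes of the HSP70 family and its co-chaperones, 2 rose and 2 fell, with a median log2 fold change of 0. The share called was 13.3%, against 26.8% of all genes tested. HSPA1B, a stress-inducible HSP70, fell from 162 ± 7.27 to 95.2 ± 11 FPKM (SD, n = 4; log2 fold change -0.77, SE 0.174, limma adjusted p = 0.00975). Its near-identical copy HSPA1A did not pass the test (log2 fold change 0.75, SE 1.25, limma adjusted p = 0.682). The sum of both copies, taken after the values were seen, was 321, 345, 168 and 357 FPKM untreated. With dexamethasone it was 173, 200, 205 and 226 FPKM, so the groups overlapped through untreated replicate 4. DNAJB4, an HSP40 partner of HSP70, rose from 3.17 ± 1.36 to 7.22 ± 2.36 FPKM (SD, n = 4; log2 fold change 1.01, SE 0.244, limma adjusted p = 0.0137), although its groups overlapped slightly and the log2 fold change was 0.55 with the GC trend removed. BAG3, an HSP70 exchange factor that works with small heat-shock proteins, rose from 45.2 to 48 FPKM in the 4 untreated libraries to 63.2 to 75.1 FPKM in the 4 dexamethasone libraries (log2 fold change 0.55, SE 0.147, limma adjusted p = 0.0216). The other gene that fell was HSPA2, an HSP70 most abundant in testis, named after its value was seen (40.3 ± 10.2 and 27.3 ± 2.69 FPKM, SD, n = 4; log2 fold change -0.51, limma adjusted p = 0.045). BAG3 lost its call without untreated replicate 1, 3 or 4 or dexamethasone replicate 3 or 4 (limma adjusted p 0.0503 to 0.0605), and HSPA2 without untreated replicate 1, 3 or 4 or dexamethasone replicate 1, 3 or 4 (0.0866 to 0.125). HSPA2 was also not called with the GC trend removed (log2 fold change -0.33, limma adjusted p = 0.199), with no filter (0.0548), with no scaling (0.0891) or with upper-quartile or weighted scaling (0.0514 and 0.0505). The inducible HSPA1B and the constitutive HSPA8 had log2 fold changes of the same sign, and the difference between them was not tested.

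The heat-shock factors, small heat-shock proteins and chaperonins had 17 genes tested, of which 3 rose and 1 fell, with a median log2 fold change of 0.02. The share called was 23.5%, against 26.8% of all genes tested. The 3 that rose, CRYAB, HSPB1 and HSPB8, encode small heat-shock proteins, which hold unfolded proteins without hydrolysing ATP. HSPB6, the other small heat-shock gene of the list, was too low to be tested, at 0.22 to 0.428 FPKM untreated and 0.0639 to 0.121 FPKM with dexamethasone. CRYAB went from 0.203 ± 0.101 to 5.47 ± 1.31 FPKM (SD, n = 4; log2 fold change 2.40, SE 0.176, limma adjusted p = 1.37e-05). All its untreated libraries, at 0.112 to 0.299 FPKM, were under the filter of 0.5 FPKM. CRYAB was thus tested only through the dexamethasone libraries, where it was high, and its place among the genes that rose depends on that. With no filter on low values, its limma adjusted p was 7.53e-05. With a pseudocount of 0.1 in place of 1, the log2 fold change of this low gene was 4.21 (95% confidence interval 3.5 to 4.92). HSPB1 went from 340 ± 75.1 to 645 ± 106 FPKM (SD, n = 4; log2 fold change 0.93, SE 0.261, limma adjusted p = 0.027). HSPB8, the partner of BAG3, went from 8.22 ± 0.336 to 11.6 ± 0.449 FPKM (SD, n = 4; log2 fold change 0.45, SE 0.144, limma adjusted p = 0.044). The gene that fell was CCT7, a subunit of the chaperonin ring, named here after its value was seen (log2 fold change -0.53, limma adjusted p = 0.0488). HSPB1 lost its call without any of untreated replicates 1, 3 and 4 and dexamethasone replicates 3, 4 and 5 (limma adjusted p 0.0524 to 0.0702). HSPB8 lost it without any library other than untreated replicate 5 (0.0726 to 0.103), and CCT7 without any library other than those numbered 5 (0.0648 to 0.141) and with no filter on low values (0.0515).

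Nuclear import and dynein genes act downstream of the receptor complex that FKBP4 joins. Of 19 tested, 2 rose and 2 fell, a share of 21.1% called against 26.8% of all genes tested, with a median log2 fold change of 0.1. NUP62, a nucleoporin of the central channel, fell from 56.5 ± 3.59 to 26.2 ± 5.44 FPKM (SD, n = 4; log2 fold change -1.11, SE 0.153, limma adjusted p = 0.00061). KPNA2, an importin alpha, fell from 254 ± 32.2 to 151 ± 13.7 FPKM (SD, n = 4; log2 fold change -0.75, SE 0.15, limma adjusted p = 0.00501). DYNC1I2, a dynein intermediate chain, rose from 18.2 ± 5.11 to 31.1 ± 3.45 FPKM (SD, n = 4; log2 fold change 0.77, SE 0.146, limma adjusted p = 0.00377), or 0.42 with the GC trend removed. The other gene that rose was KPNA3, another importin alpha, named after its value was seen (log2 fold change 0.86, limma adjusted p = 0.0217). The KPNA3 call was lost without untreated replicate 1 or dexamethasone replicate 1, 3 or 4 (limma adjusted p 0.0558 to 0.0651), and with no scaling between libraries (0.0696). With the GC trend removed, the log2 fold change of KPNA3 was 0.54.

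**Figure D4:**
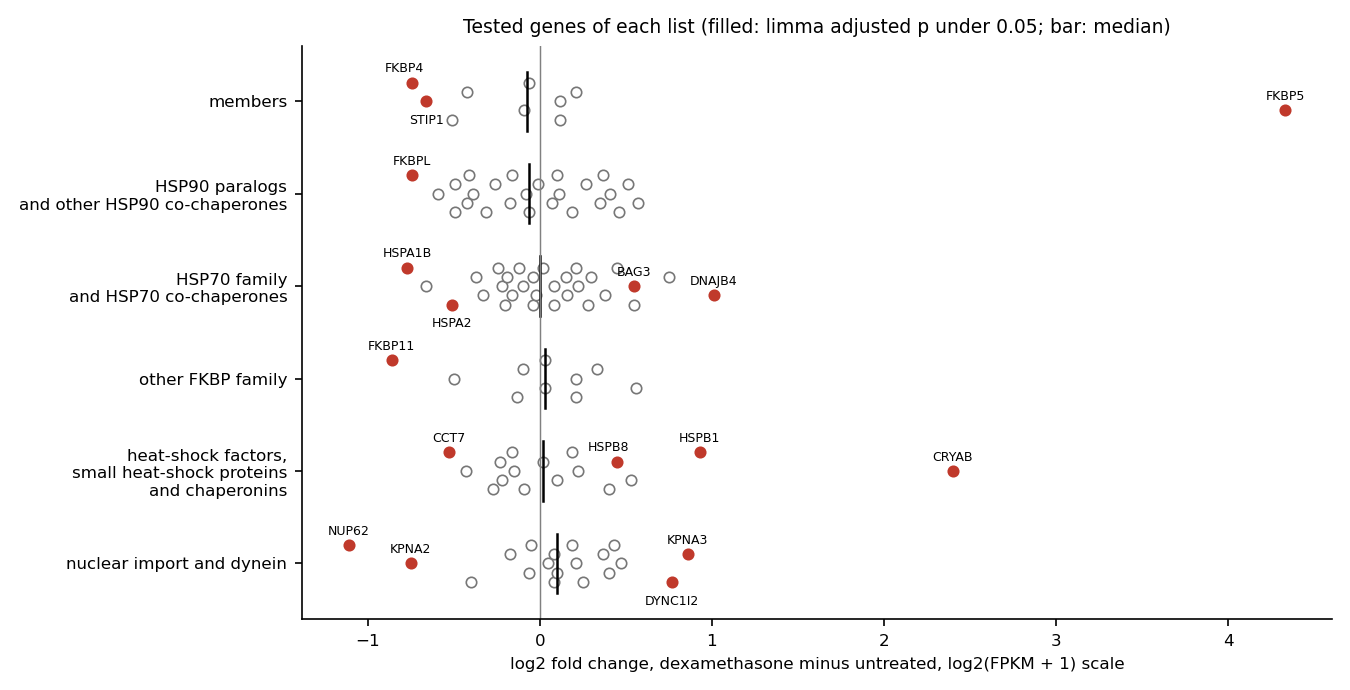
Log2 fold change, dexamethasone minus untreated, of each tested gene in the 10-gene set and in 5 lists of related genes; filled points passed the test (limma adjusted p under 0.05) and the vertical bar is the list median. FKBP5 lay at 4.33 and CRYAB at 2.40 on this scale, where a pseudocount of 0.1 in place of 1 gave 4.54 and 4.21 with overlapping 95% confidence intervals, and the list medians ran from -0.07 to 0.1.

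The order of the levels of the 10 genes, compared per length, changed mainly through FKBP5. In untreated cells the order of mean FPKM was HSPA8, HSP90AB1, HSP90AA1, STIP1, FKBP4, PTGES3, HSPA4, NR3C1, BAG1 and FKBP5. Neighbours in that order whose libraries overlapped were HSPA8 with HSP90AB1, HSP90AA1 with STIP1, FKBP4 with PTGES3, and NR3C1 with BAG1. With dexamethasone the order was HSPA8, HSP90AB1, HSP90AA1, FKBP5, STIP1, PTGES3, FKBP4, HSPA4, NR3C1 and BAG1. Overlapping neighbours were then HSPA8 with HSP90AB1, HSP90AA1 with FKBP5, FKBP5 with STIP1, and NR3C1 with BAG1. Among all genes of the table ranked by mean FPKM, FKBP5 stood at rank 7200 untreated and 357 with dexamethasone. FKBP4 stood at rank 585 and 994, and NR3C1 at rank 3363 and 2939.

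Profiles of log2(FPKM + 1), taken after scaling between libraries, were compared by their root mean square difference over the 8 libraries. Each profile was centred on its own mean. The 3 genes nearest to NR3C1, whose own profile spanned 1.53 log2 units, were STX16, a syntaxin, at 0.129, LYRM2 at 0.181 and FAM133B at 0.187. None of the 3 passed the test between the groups, with limma adjusted p of 0.936, 0.562 and 0.818, and their likeness includes the shared low values in the libraries numbered 5. The 3 nearest to FKBP5, whose profile spanned 5.04 log2 units, were MAOA, monoamine oxidase A, at 0.32, SCNN1A, the alpha subunit of the epithelial sodium channel, at 0.356, and BEST2, a bestrophin channel, at 0.371. Mean MAOA went from 0.578 to 39.3 FPKM, mean SCNN1A from 2.68 to 58.7 FPKM and mean BEST2 from 0.0249 to 18.8 FPKM. With groups this far apart, the likeness to FKBP5 rests mostly on the difference between the groups.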

How the data were processed

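The labels call the deposited values counts, but they hold fractions of a read and were taken as FPKM. The FPKM sums (338989.1 to 373855 per library) differed between libraries, and the unit was inferred from the values. Per the submitters' processing notes, the tools were FastQC 0.11.9, cutadapt 3.4, STAR 2.7.9a, featureCounts (Subread 2.0.3) and DESeq2 1.32.0, with GRCh38. The annotation release, the use of strand and the step that made FPKM are not given in the sources used here.

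The steps between low values gave an estimate of depth. Only 32.2% to 42.6% of low values per library lay within 0.1 of a whole fragment number, against 20% by chance. Read numbers could thus not be rebuilt, and count models were not used. Scaling between libraries used a trimmed mean of M values (0.3 of M, 0.05 of A), without weights because the usual weights assume read counts. The weighted form was run first, and the choice was made after both had been seen. Genes reaching 0.5 FPKM in 4 or more libraries (3 where a library was left out) were tested on log2(FPKM + 1), whose fold changes understate those of low genes, with limma 3.58.1 in R 4.3.3 (lmFit, eBayes with trend and robust), two-sided, group as the only term. P-values were adjusted by Benjamini-Hochberg over 12161 genes, with a threshold of 0.05.

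Within-library ratios were tested by exact permutation (scipy 1.17.1). GENCODE v44 gave strand, overlaps and GC content, and RefSeq (GRCh38.p14) the promoter windows. Named genes are the 10 genes, the 3 tested genes of smallest p in each list, 4 other steroid receptors as levels, and the 3 nearest profiles. HSPA1A, HSPA2, CCT7, KPNA3 and HSPB6 were named outside that rule. The members and lists were chosen with earlier results of these data known. Not every gene looked at is reported here. The limma step alone was tested on simulated data of 12161 genes, 200 of them changed and none of those of low level. It recovered 8% of those changed 1.5-fold, 51.5% of those changed 2-fold and 82% of those changed 4-fold, with 1, 5 and 9 false calls. The simulated noise was independent between genes, with no scaling or filter step. Deviations shared by many genes, as in the libraries numbered 5, were thus not covered. The alternatives tried were another pseudocount, no filter and a stricter filter, no scaling and upper-quartile scaling, a replicate block, removal of the GC trend, a fit that was not robust, and leaving out libraries.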

Additional observations from a re-analysis of the deposited data

Results flagged for a closer look

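In 8 of 68 groups of 4 values looked at, 1 library lay far from the other 3 by Dixon's ratio. The groups included HSPA1A, added outside the naming rule, and HSPA2, CCT7 and KPNA3, named after their values were seen. Chance gives about 1 in 20, or 3.4 groups. Of the 8, 6 were in libraries numbered 5 and 4 of those in untreated replicate 5.

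Among the 10 genes, FKBP4 was at 104 FPKM in untreated replicate 5 against 88.4 to 89.4 FPKM in the other untreated libraries. PTGES3 was at 54.8 FPKM there against 94.7 to 101 FPKM. The ratio of NR3C1 to the sum of both HSP90 genes was 0.0118 there against 0.0214 to 0.0227.

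Among list genes, HSPB1 was at 452 FPKM in untreated replicate 5 against 291 to 318 FPKM, and at 803 FPKM in dexamethasone replicate 5 against 579 to 610 FPKM. HSPA2 was at 31.3 FPKM in dexamethasone replicate 5 against 25.4 to 26.3 FPKM. FKBP11 was at 3.81 FPKM in dexamethasone replicate 4 against 5.13 to 5.38 FPKM in the others. HSPA1A was at 1.59 FPKM in untreated replicate 4 against 169 to 190 FPKM in the other untreated libraries. Its near-identical copy HSPA1B, a named gene by the rule, was at 166 FPKM in that library, within the 151 to 167 FPKM of the untreated group. The 2 copies were compared after the values were seen. How reads shared by the copies were assigned is not given in the sources used here, and the HSPA1A and HSPA1B levels are uncertain for that reason.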

How the results depend on the processing

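Over all genes tested, 3258 were called. Without both libraries numbered 5 there were 5534 (45.2% of those tested), with the GC trend removed 4509 (37.2%), and leaving out 1 library gave 2285 to 3876. Of the 10 genes, 3 were called; 4 were called with count-based weights in the scaling (HSP90AB1 in addition, limma adjusted p = 0.0412), 5 without both libraries numbered 5 and 6 with the GC trend removed. Leaving out 1 library gave 1 to 4, with 1 (FKBP5) without dexamethasone replicate 1 or 3.

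For the lists, the HSP90 list had 1 call, with 5 under no scaling, 3 under upper-quartile scaling, 11 without both libraries numbered 5 and 7 with the GC trend removed. Leaving out 1 library gave 0 to 6, with 0 (limma; 1 to 4 at an unadjusted p under 0.05) without dexamethasone replicate 1, 3 or 4. The HSP70, FKBP, heat-shock and import lists had 4, 1, 4 and 4 calls. Without both libraries numbered 5 these were 10, 3, 7 and 8. With the GC trend removed, the FKBP list had 3 and the heat-shock list 8. Leaving out 1 library gave 2 to 6, 1 to 2, 1 to 5 and 3 to 5. With the GC trend removed and without both libraries numbered 5, chosen after seeing the data, 5209 genes (42.7%), 5 of the 10, and 9, 11, 3 and 9 of the HSP90, HSP70, FKBP and heat-shock lists were called. The larger counts with the GC trend removed or without both libraries numbered 5 went with a larger share of all genes called; under no scaling and upper-quartile scaling 27.0% and 27.2% of all genes were called. The cause was not tested.

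Libraries with the same number did not clearly deviate together in every pair (correlations of deviations 0.294, 0.067, 0.315 and 0.713), and not every library correlated best with its own number. The numbers were therefore not taken as a pairing, but these correlations, all positive, do not exclude one. Of the 10 genes, HSP90AB1 and HSPA8 were called in addition when a replicate block was used (limma adjusted p = 0.00389 and 0.013). With a replicate block, 5738 genes (47.2%), 5 of the 10, and 13, 9, 2, 7 and 8 of the HSP90, HSP70, FKBP, heat-shock and import lists were called. With the replicate block and the GC trend removed, these were 5308 (43.8%), 6, 9, 10, 4 and 8, without the import list.

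Of the values of named genes under the alternatives, 449 kept direction and side of the threshold, 52 lost the call, 45 gained it and 14 turned. The direction turned, with the cause not tested, for NR3C1 at -0.09 (without untreated replicate 5), -0.04 (without dexamethasone replicate 3) and -0.14 (GC trend removed, with or without the block); leaving out 1 library gave -0.09 to 0.47. It turned for HSP90AA1 at -0.23 (without untreated replicate 5), -0.07 (without both libraries numbered 5), -0.11 (GC trend removed, with or without the block) and -0.25 (GC trend removed, without both libraries numbered 5); leaving out 1 library gave -0.23 to 0.28. It turned for BAG1 at 0.03 (without untreated replicate 5, or without both libraries numbered 5), 0.02 (without dexamethasone replicate 4) and 0.06 (GC trend removed, without both libraries numbered 5); leaving out 1 library gave -0.12 to 0.03. HSPA4 was at -0.02 in that last setting. The 5 ratios kept their direction in all 55 values from the alternatives run on them. Those with a replicate block or fewer libraries could not reach the threshold and say nothing of its stability.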
